A study of Homo sapiens with 1 sample.

Results

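CXC chemokines and the related inflammatory cytokines form a group of secreted signals whose genes are switched on by similar stimuli. CXCL1, CXCL2, CXCL3, CXCL5, CXCL6 and CXCL8 attract neutrophils through the receptors CXCR1 and CXCR2. Their genes lie in a cluster on chromosome 4, with other chemokine genes between them. IL6 is the ligand of the IL-6 receptor, CCL2 attracts monocytes, LIF signals through the LIF receptor and gp130, and IL1B encodes interleukin-1β. Their promoters are textbook targets of NF-κB, often together with AP-1 or C/EBP factors. To describe how open these loci were, the ATAC-seq peaks of 786-O cells were examined around the 10 genes, 6 in the chromosome 4 cluster and 4 elsewhere. Each gene was taken with 50 kb to either side of its record in the GENCODE annotation (hg38), and a peak belonged to it when its summit lay there. The rule gave 75 of the 88676 peaks in the list, 27 of them around the cluster and 48 around the other genes.

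The human line 786-O is an established model of clear cell renal cell carcinoma. The study overexpressed DPF3a, an isoform of a SWI/SNF chromatin remodelling subunit, in this line, and the library examined here carried an empty vector as the control. It was 1 library without a replicate, so no comparison between groups and no p-value is given. Of 3 renal epithelial markers, PAX8 and PAX2 had a promoter peak and CDH6 had none. The endothelial markers PECAM1 and CDH5 had none, and of 6 leukocyte markers CD14 had a promoter peak of fold 6.70 and CSF1R one of fold 15.5 away from its canonical start.

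The fold enrichment of a peak is the pileup of reads at its summit plus 1, over the genome-wide background pileup of 0.941 plus 1, so each read adds 0.515. The lowest pileup in the list was 9, which is a fold of 5.15, and the median fold of all peaks was 10.8. Intervals in parentheses are exact 95% intervals that cover counting error only. A gene without a peak is a gene below this floor or without a call in this library, which does not show that its chromatin was closed. The promoter of a gene was the 1 kb before and the 100 bp after any of its transcription start sites (TSS), and distances are to the start of the canonical transcript.

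A promoter peak was found for 7 of the 10 genes (70.0%, 34.8 to 93.3), namely IL6, CXCL8, CXCL2, CXCL3, CXCL5, CCL2 and CXCL1. Of all 20033 protein-coding genes 61.4% had one, so the share of the 10 genes was near that of the genome. At the canonical start alone the count was again 7, beside 52.2% of all coding genes. CXCL6, LIF and IL1B had none.

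The sequences upstream of the chemokine starts are shown because most of them carry the same κB letters whether or not a peak lay there. The bases are those before the RefSeq start (GRCh38.p14), on the strand of the gene, and stop where an annotated untranslated region of another transcript begins. Capitals mark GGNNNTTCC, the κB motif searched here, and TGACTCA or TGAGTCA, the AP-1 motif, on either strand. CXCL8 is at chr4:73740319-73740518 on the plus strand, CXCL1 at chr4:73869143-73869392 on the plus strand and CXCL2 at chr4:74099196-74099445 on the minus strand. CXCL3 is at chr4:74038690-74038939 on the minus strand, CXCL5 at chr4:73998678-73998927 on the minus strand and CXCL6 at chr4:73836428-73836639 on the plus strand. IL6, at chr7:22726950-22727146 on the plus strand, and IL1B, at chr2:112836817-112837029 on the minus strand, follow for comparison.
CXCL8: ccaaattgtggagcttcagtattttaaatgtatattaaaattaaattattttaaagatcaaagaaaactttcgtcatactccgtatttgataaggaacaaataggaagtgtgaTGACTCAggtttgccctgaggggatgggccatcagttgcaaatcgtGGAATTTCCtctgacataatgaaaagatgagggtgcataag
CXCL1: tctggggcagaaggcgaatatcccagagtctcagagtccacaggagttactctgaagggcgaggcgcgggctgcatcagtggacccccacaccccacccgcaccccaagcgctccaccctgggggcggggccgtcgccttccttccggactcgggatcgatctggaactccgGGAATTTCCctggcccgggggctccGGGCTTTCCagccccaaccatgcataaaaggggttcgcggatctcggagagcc
CXCL2: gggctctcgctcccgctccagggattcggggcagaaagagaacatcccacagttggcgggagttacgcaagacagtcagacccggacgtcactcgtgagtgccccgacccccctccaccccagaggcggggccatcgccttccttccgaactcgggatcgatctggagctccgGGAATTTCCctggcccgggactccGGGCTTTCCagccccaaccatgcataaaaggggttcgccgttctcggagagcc
CXCL3: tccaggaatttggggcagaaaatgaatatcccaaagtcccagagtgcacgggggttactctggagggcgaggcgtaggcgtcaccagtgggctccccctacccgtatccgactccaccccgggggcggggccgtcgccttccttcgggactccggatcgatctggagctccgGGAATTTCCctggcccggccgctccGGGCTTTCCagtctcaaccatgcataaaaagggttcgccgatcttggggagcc
CXCL5: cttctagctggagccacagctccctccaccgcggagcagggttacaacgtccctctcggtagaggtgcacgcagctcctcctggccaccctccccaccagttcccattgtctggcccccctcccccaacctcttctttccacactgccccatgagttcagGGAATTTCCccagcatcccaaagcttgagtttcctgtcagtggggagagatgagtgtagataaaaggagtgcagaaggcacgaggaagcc
CXCL6: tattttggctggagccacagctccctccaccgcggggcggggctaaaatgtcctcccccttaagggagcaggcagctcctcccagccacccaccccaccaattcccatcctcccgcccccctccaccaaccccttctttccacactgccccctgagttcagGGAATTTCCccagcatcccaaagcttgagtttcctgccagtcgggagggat
IL6: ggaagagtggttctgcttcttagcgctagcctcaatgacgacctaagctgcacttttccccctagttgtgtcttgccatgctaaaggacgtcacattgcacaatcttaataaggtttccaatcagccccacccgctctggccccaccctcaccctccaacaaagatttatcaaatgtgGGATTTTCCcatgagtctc
IL1B: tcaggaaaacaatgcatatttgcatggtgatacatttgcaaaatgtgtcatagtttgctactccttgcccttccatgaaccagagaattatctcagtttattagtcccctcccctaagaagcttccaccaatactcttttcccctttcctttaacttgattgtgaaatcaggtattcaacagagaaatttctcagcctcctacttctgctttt

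RefSeq promoters were matched for 8 of the 10 genes, all but CCL2 and LIF. In the 250 bases before the start, 7 of the 8 held GGNNNTTCC, beside 17.1% of 35116 promoters of the same length. The genes are known NF-κB targets and several of these promoters resemble each other. The 7 are therefore not separate instances, and the contrast with all promoters was not tested. The 6 CXC chemokines shared the 9 letters GGAATTTCC, which began at position -78 in CXCL1 and CXCL3, -77 in CXCL2, -90 in CXCL5, -89 in CXCL6 and -91 in CXCL8, counted from the start. CXCL1, CXCL2 and CXCL3 held a second match, GGGCTTTCC, at -53. IL6 held GGATTTTCC at -72, and IL1B held no match in this window. A match is a description of the letters and does not show that a factor was bound.

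The other motifs were searched as exact letters, so a site that differs by a single base was not counted. A promoter without a match may therefore hold a variant of the same site. AP-1 was found in 1 of the 8, at -137 in CXCL8, and in 4.20% of all promoters. A TATAAA between -40 and -20 was likewise found in CXCL8 alone, at -31, beside 2.30% of all promoters. The C/EBP motif TTGCNNAA was found in CXCL2, IL6 and IL1B, beside 9.05% of all promoters. GGAATG, the TEAD motif, was found in none of the 8, beside 11.9% of all promoters.

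The sequences also showed which chemokine genes resemble each other. Over the 250 bases aligned end to end, CXCL5 and CXCL6 were 85.4% identical, CXCL1 and CXCL3 81.5%, CXCL2 and CXCL3 73.8% and CXCL1 and CXCL2 72.6%. CXCL8 was at most 49.3% identical to another member of the cluster. A local BLAST search from 1 kb before to 100 bp after the start gave a closer match between CXCL2 and CXCL1, 90.5% over 243 bp. The closest pair over the 250 bases, CXCL5 and CXCL6, differed in the peak list. CXCL5 had a promoter peak of fold 14.4 (9.68 to 20.8), and CXCL6 had none.

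CXCL8, CXCL2, CXCL3 and CXCL5 had promoter peaks of fold 14.4 to 24.2. CXCL8, known also as interleukin-8, had a promoter peak of fold 24.2 (17.9 to 32.1) at a pileup of 46, its summit 27 bp before the TSS. CXCL2 had one of fold 22.7 (16.6 to 30.4), with the summit 194 bp upstream. CXCL3 had one of fold 18.6 (13.1 to 25.6), 22 bp upstream. These and CXCL5, whose summit was 61 bp upstream, could not be told apart between neighbours in the order of folds. The pileup ratio was 1.07 (0.690 to 1.66) for CXCL8 over CXCL2, 1.23 (0.768 to 1.98) for CXCL2 over CXCL3 and 1.30 (0.762 to 2.23) for CXCL3 over CXCL5. Between the ends of this order, CXCL8 over CXCL5, it was 1.70 (1.04 to 2.85).

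CXCL1 was at the floor of the list. Its promoter peak had a fold of 5.15 (2.64 to 9.32) at a pileup of 9, with the summit 140 bp upstream. The pileup of CXCL8 was 5.11 times that of CXCL1 (2.47 to 11.9), that of CXCL2 4.78 times (2.30 to 11.1) and that of CXCL3 3.89 times (1.83 to 9.20). For CCL2 over CXCL1 the ratio was 1.44 (0.571 to 3.83), so these 2 could not be told apart. CXCL1 carries the 2 κB matches that CXCL2 and CXCL3 carry. A second peak, of fold 8.76 (5.23 to 13.9), lay 1.10 kb downstream of the start in an intron of CXCL1. The CXCL1 promoter region, 1 kb before and 100 bp after the start, matched that of CXCL3 over 520 bp at 85.8% identity. Shorter matches to CXCL2 were closer, at 92.6% over 176 bp for the promoter peak and 90.3% over 455 bp for the intron peak. The authors removed reads of mapping quality under 30, and how this bears on the folds of CXCL1 was not tested. A copy of at least 95% identity over 100 bp was found elsewhere in hg38 for no stretch of the CXCL1, CXCL2 or CXCL3 promoter.

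CXCL6 had no promoter peak and no summit inside the gene. Its nearest summit was 3.87 kb upstream, again at the floor with a fold of 5.15 (2.64 to 9.32). Its strongest peak lay 19.7 kb upstream with a fold of 15.5 (10.5 to 22.0) and held an AP-1 motif. From 1 kb to 352 bp upstream, 58.9% of the promoter region, the CXCL6 sequence had copies of at least 95% identity elsewhere in hg38, alternative sequences included, and the bases nearer the start had none. How much of the missing peak follows from reads that could not be placed was not tested.

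**Figure D1:**
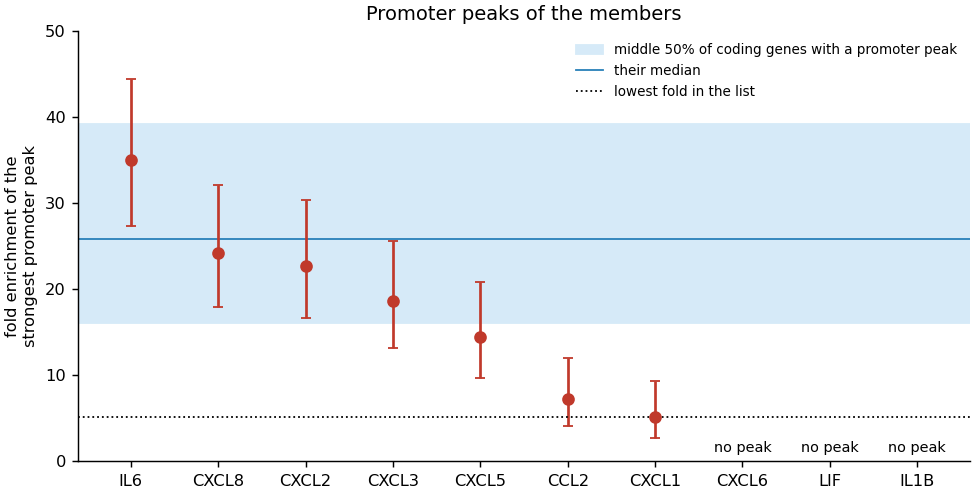
Fold enrichment of the strongest promoter peak of each of the 10 genes (vertical axis), with exact 95% counting intervals as bars. The shaded band runs from 16.0 to 39.2, the middle 50% of coding genes with a promoter peak, and the line is their median of 25.8; IL6 is highest at 35.0, CXCL1 sits on the dotted floor at 5.15, and CXCL6, LIF and IL1B have no peak.

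Beside all coding genes with a promoter peak, whose strongest peak had a median fold of 25.8, most of the 7 genes lay below the middle. The percentile among those genes was 67.8 for IL6, 45.2 for CXCL8, 41.5 for CXCL2, 31.0 for CXCL3, 20.8 for CXCL5, 5.08 for CCL2 and 0 for CXCL1. Promoters rich in G and C more often have a peak, so the share of genes of like GC content (within 2.5 percentage points) with a promoter peak was set beside each gene. It was lowest for CXCL8, at 23.9% of genes at a GC content near 38.0%, and CXCL8 had a peak. It was highest for LIF, at 69.6% near 57.5%, and LIF had none. For the other 2 genes without a peak it was 55.6% (CXCL6) and 41.9% (IL1B).

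Across the cluster the strongest peaks lay at its ends. From the start of CXCL8 to the end of CXCL2, 359 kb, there were 18 peaks or 5.02 per 100 kb, beside 2.21 per 100 kb of chromosome 4. Their median fold of 8.76 was below the 9.79 of the chromosome. With the flanks counted, the 27 peaks had a median of 10.3 and a density of 6.22 per 100 kb over 434 kb. Upstream of CXCL8, a peak of fold 26.8 (20.1 to 35.1) lay 35.9 kb from the start and one of fold 22.2 (16.1 to 29.8) lay 14.3 kb from it. Upstream of CXCL2, at the other end, lay the strongest peak within 50 kb of the 6 genes, with a fold of 39.7 (31.4 to 49.5) at 10.4 kb, an interval above that of the CXCL2 promoter peak. A further peak of fold 25.8 (19.2 to 33.9) lay 18.1 kb upstream of CXCL2 inside MTHFD2L, whose strongest promoter peak, of fold 49.0, lay outside the windows. The summit of the peak of fold 39.7, at 74109628, was nearer to the start of the MTHFD2L record, at 74114174, than to CXCL2.

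The summits of both outlying peaks are shown with 50 bases to each side, on the plus strand of hg38, since they were among the strongest of the cluster. Capitals mark an AP-1 motif in the first and a TEAD motif in the second. The peak upstream of CXCL8 is at chr4:73704610-73704710 and the one upstream of CXCL2 at chr4:74109578-74109678.
CXCL8, 35.9 kb upstream: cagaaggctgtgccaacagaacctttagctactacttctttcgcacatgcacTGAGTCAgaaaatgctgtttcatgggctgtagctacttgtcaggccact
CXCL2, 10.4 kb upstream: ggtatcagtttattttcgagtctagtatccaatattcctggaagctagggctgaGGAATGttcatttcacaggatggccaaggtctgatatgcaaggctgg

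**Figure D2:**
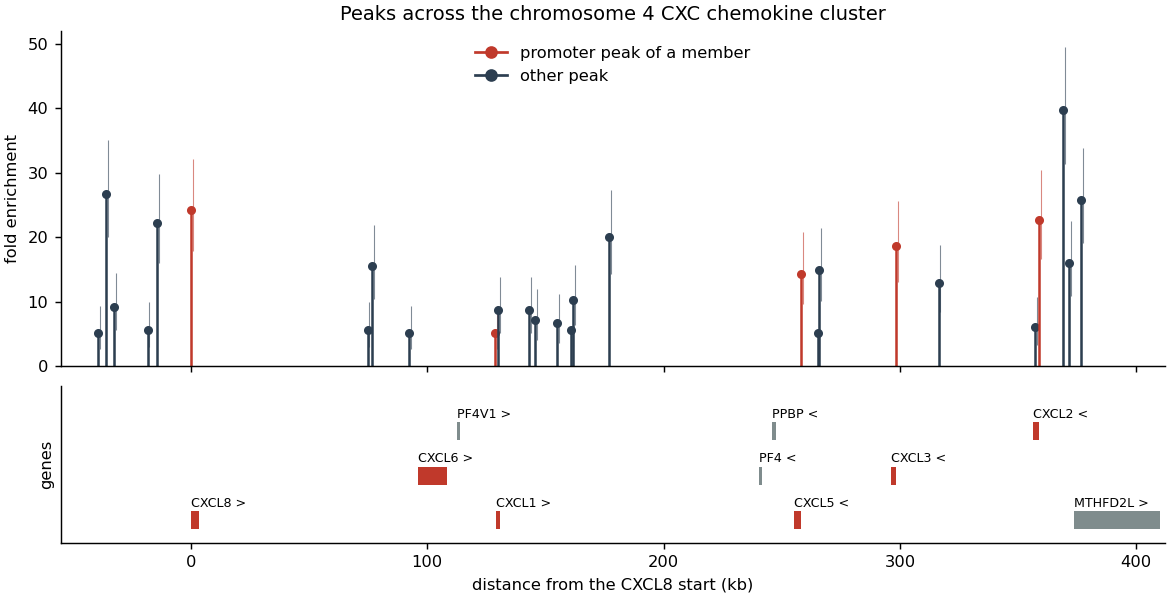
Peaks around the 6 chemokine genes of chromosome 4, plotted by distance from the start of the CXCL8 record (kb) and fold enrichment, with genes drawn below and an arrow for their strand. Red stems are promoter peaks of the 6 genes, dark stems other peaks and thin lines exact 95% counting intervals; the stems are tallest at the 2 ends, 26.8 upstream of CXCL8 and 39.7 upstream of CXCL2, and the promoter peak of CXCL1 is at 5.15.

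Some stretches of the cluster held no summit. Their lengths were not set beside those of gaps elsewhere on chromosome 4, where peaks were sparser (2.21 per 100 kb, beside 5.02 in the cluster). The longest, 81.3 kb, held CXCL5 up to its promoter peak, together with PF4 and PPBP, chemokines of platelets. The next, 74.7 kb, ran from the CXCL8 promoter peak towards CXCL6. A gap of 36.4 kb held CXCL6 and PF4V1, a paralogue of PF4. Neither PF4, PF4V1 nor PPBP had a promoter peak. The summits between CXCL1 and the longest gap were weak, with folds from 5.67 to 10.3, except for one of fold 20.1 (14.4 to 27.4) 48.1 kb downstream of the CXCL1 start.

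IL6 had the strongest promoter peak of the 10 genes, with a fold of 35.0 (27.3 to 44.4). Its pileup of 67 was 7.44 times that of CXCL1 (3.70 to 17.0), whereas against CXCL8 the ratio of 1.46 had an interval of 0.986 to 2.17. The summit lay 636 bp upstream of the canonical start, inside an intron of other IL6 transcripts and inside IL6-AS1 and STEAP1B, and the peak was 1713 bp wide and reached over the start and the κB match at -72. A still higher peak, with a fold of 42.8 (34.1 to 53.0), lay 4.23 kb downstream of the start in a coding exon of IL6. It was the strongest of the 10 peaks around the gene. A peak of fold 26.8 (20.1 to 35.1) lay 8.82 kb upstream, and the other 7 had folds from 6.18 to 10.8.

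CCL2 showed its strongest signal outside the promoter. A peak 2.56 kb upstream had a fold of 38.1 (30.0 to 47.8), which placed it at the 91.4 percentile of all peaks. The promoter itself held 2 peaks of fold 7.21 (4.08 to 12.0) each, 0.973 kb and 0.198 kb upstream of the start. The pileup of CXCL5 over that of CCL2, 2.08 (1.04 to 4.38), was the one ratio between direct neighbours in the order of promoter peaks whose interval stayed above 1. The other 3 peaks around CCL2 had folds of 7.21 to 9.28 and lay 36.9 to 51.3 kb downstream of the start. The summit of the strong upstream peak, chr17:34252675-34252775 on the plus strand, is shown because it held the same 9 κB letters as the CXC chemokine promoters, in capitals.
CCL2, 2.56 kb upstream: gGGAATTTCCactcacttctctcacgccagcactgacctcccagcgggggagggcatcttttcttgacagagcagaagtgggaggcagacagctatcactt

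LIF was surrounded by more peaks than any of the other 9 genes, although its promoter had none. There were 24 summits within 50 kb, 32.0% of the 75, of which 9 were upstream, 1 inside and 14 downstream. The density of 22.6 per 100 kb was reached or exceeded by 17 of all 20033 coding genes, LIF included, and by 3 of the 7734 without a promoter peak. The peaks were also strong, with 19 of the 24 above the median fold of all peaks, 12 above a fold of 20 and 3 in the top 10%, which began at a fold of 35.6. The strongest lay 10.9 kb downstream of the start with a fold of 50.0 (40.6 to 60.9), the highest among the 75. Others of fold 39.7 (31.4 to 49.5) and 37.1 (29.1 to 46.7) lay 36.1 kb downstream and 11.0 kb upstream. The summit nearest to the start was 4.17 kb upstream, with a fold of 29.9 (22.8 to 38.6), in a peak 4269 bp wide with a κB motif within 50 bp of the summit. Inside the gene there was 1 summit, of fold 5.67 (2.99 to 9.99), in an untranslated exon.

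Some of the peaks around LIF belong to the promoters of other genes. Those of fold 26.8 and 26.3 upstream were at promoters of CASTOR1, and 1 of fold 13.9 was at the promoter of LIF-AS1. OSM, another cytokine of the same family on chromosome 22, had no promoter peak and 22 peaks within 50 kb, of which 18 were also within 50 kb of LIF. A BLAST search at 85% identity or more found no copy of the LIF promoter elsewhere in hg38, and none for IL6, CCL2, IL1B or CXCL8. Of the 75 peaks, 3 held a stretch with a copy of at least 95% identity over 100 bp. The strongest summit, chr22:30235827-30235927 on the plus strand, is shown in lower case as none of the motifs searched lay within 50 bp of it.
LIF, 10.9 kb downstream: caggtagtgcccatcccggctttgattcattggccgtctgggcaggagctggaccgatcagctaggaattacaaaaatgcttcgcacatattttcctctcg

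IL1B was the gene whose start lay farthest from any summit. None lay within 10 kb, and the nearest was 12.3 kb downstream of the start with a fold of 6.18 (3.34 to 10.7). The 8 peaks in its window split into 4 upstream and 4 downstream, with none inside the gene. The highest were of fold 21.6 (15.7 to 29.2) each, 32.4 kb downstream and 44.7 kb upstream. The density of 7.47 per 100 kb was at the 75.8 percentile of coding genes. IL1A and IL1RN, which encode the other agonist of the receptor and its antagonist, had no promoter peak either.

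**Figure D3:**
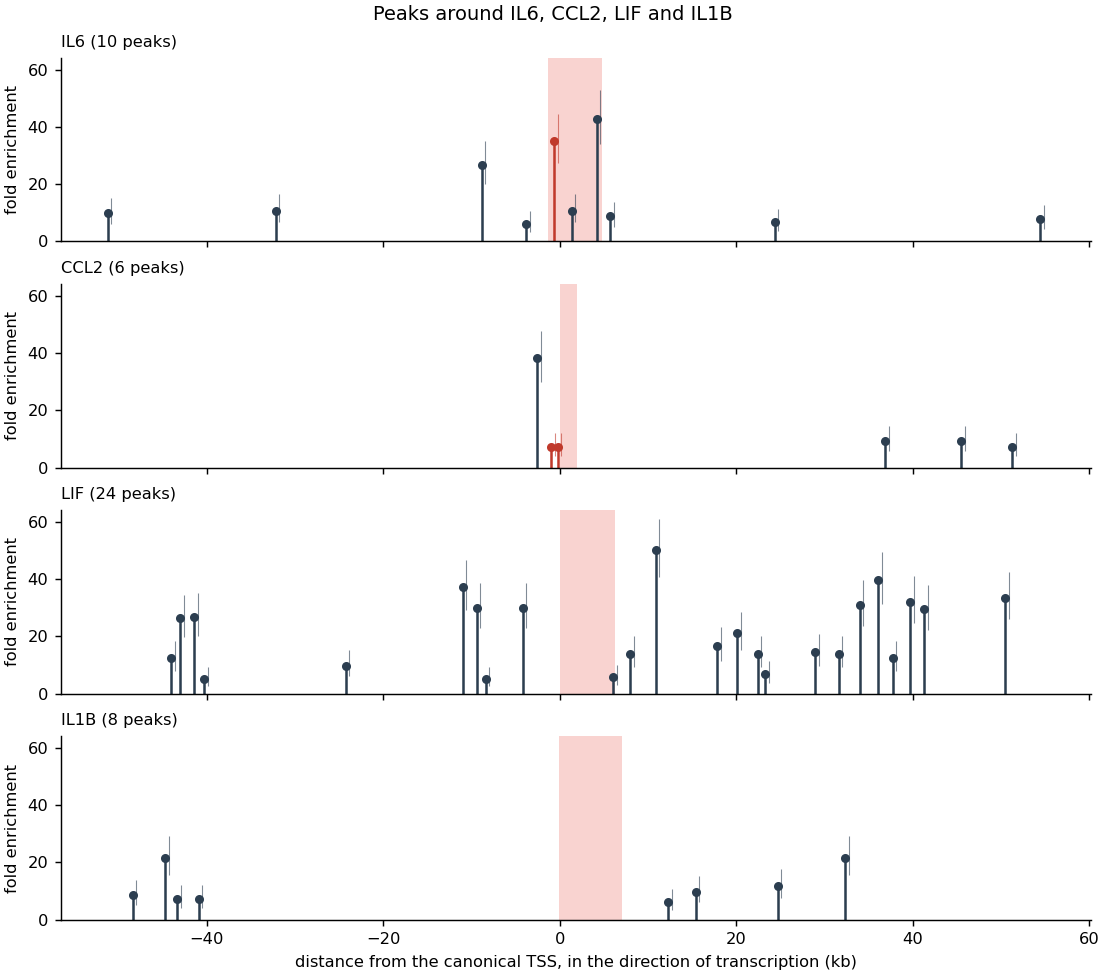
Peaks around IL6, CCL2, LIF and IL1B by distance from the canonical TSS in the direction of transcription (kb) and fold enrichment, with the gene record shaded. Red stems are promoter peaks, dark stems other peaks and thin lines exact 95% counting intervals; IL6 is high at and within the gene, CCL2 highest 2.56 kb upstream, LIF has tall stems on both sides and none at its start, and IL1B has none within 10 kb.

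At least 1 peak lay within 50 kb of each of the 10 genes, as for 92.2% of coding genes. Summits inside the gene record were found for 6 of the 10 (CXCL1, CXCL2, CXCL3, CXCL8, IL6 and LIF), beside 65.1% of coding genes. The density of peaks was 8.76 per 100 kb over the 856 kb of all windows, and 2.87 over the primary chromosomes. Gene windows in general are denser than the genome, as the median over coding genes was 4.51 per 100 kb (25th to 75th percentile, 2.32 to 7.36). Against that distribution CXCL5 was at the 43.3 percentile with 3.88 per 100 kb, CXCL3 at 54.6, CXCL8 at 62.9, CXCL2 at 63.6, CCL2 at 63.7, CXCL6 at 73.5, CXCL1 at 84.1, IL6 at 86.7 and LIF at 99.9. Windows of neighbouring chemokine genes overlap and share peaks. Just inside the 50 kb limit lay summits of fold 9.79 at 49.9 kb and 7.73 at 49.7 kb from IL6 and of 7.21 at 49.3 kb from CCL2, and just outside it one of 9.28 at 50.8 kb from IL6 and one of 5.67 at 52.2 kb from CXCL6.

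**Figure D4:**
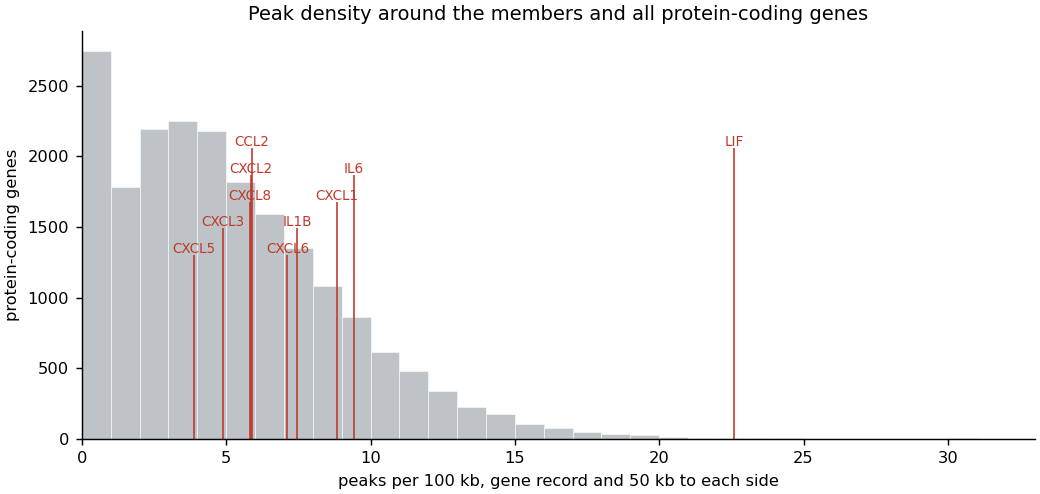
Peaks per 100 kb in the window of each protein-coding gene (horizontal axis) against the number of genes (grey bars), with the 10 genes marked by red lines whose heights carry no value. CXCL5 is lowest at 3.88 and LIF lies far to the right at 22.6.

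The median fold of the 75 peaks was 12.4, and without the window of LIF it was 9.28, below the 10.8 of all peaks. In all, 39 of the 75 were above the overall median, 6 were in the top 10% and 23 (30.7%, 20.5 to 42.4) had a pileup under 15. Promoters of any gene held 14 of the summits, 18.7% (10.6 to 29.3), beside 19.4% of all peaks. Gene bodies held 24.0% (14.9 to 35.3) beside 53.9% of all peaks, and intergenic sequence 57.3% (45.4 to 68.7) beside 26.7%. The rule takes 50 kb to either side of each gene record, so this mix depends on the rule. How much of the contrast follows from it was not tested. Most summits, 51 of 75, were 10 kb or more from the start of the nearest of the 10 genes.

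Motifs within 50 bp of the summits were counted next. κB letters were found at 9 of the 75 (12.0%, 5.64 to 21.6), beside 6.66% of all peaks. With the longer NF-κB consensus the count was 7 (9.33%, 3.84 to 18.3) beside 3.19%. C/EBP letters were also found at 9 (12.0%, 5.64 to 21.6) beside 4.43%, and 5 of these 9 were in the cluster. AP-1 was found at 14 (18.7%, 10.6 to 29.3) beside 15.7%, and TEAD at 6 of the 75 (95% interval of the share, 2.99% to 16.6%) beside 9.41%. The intervals for κB, AP-1 and TEAD include the share of all peaks, and those for C/EBP and the longer consensus lie above it. The 5 C/EBP summits of the cluster had folds of 5.15, 5.15, 5.67, 8.76 and 22.7. Those elsewhere had folds of 7.73, 8.76, 21.6 and 30.9. The one 6.97 kb upstream of CXCL5 lay in a peak of which 86.5% had copies of at least 95% identity elsewhere. For C/EBP no count was made with 100 bp to each side or a higher score minimum. Of the 7 summits with the longer consensus 4 were around LIF, and without that window the count was 3 of 51 (5.88%, 1.23 to 16.2), an interval that includes 3.19%. When 100 bp to each side were searched, κB letters were found at 18 of the 75 (24.0%, 14.9 to 35.3), an interval above the 12.8% of all peaks. These shares are over peaks of 1 library that share loci and sequence, and no test was run.

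**Figure D5:**
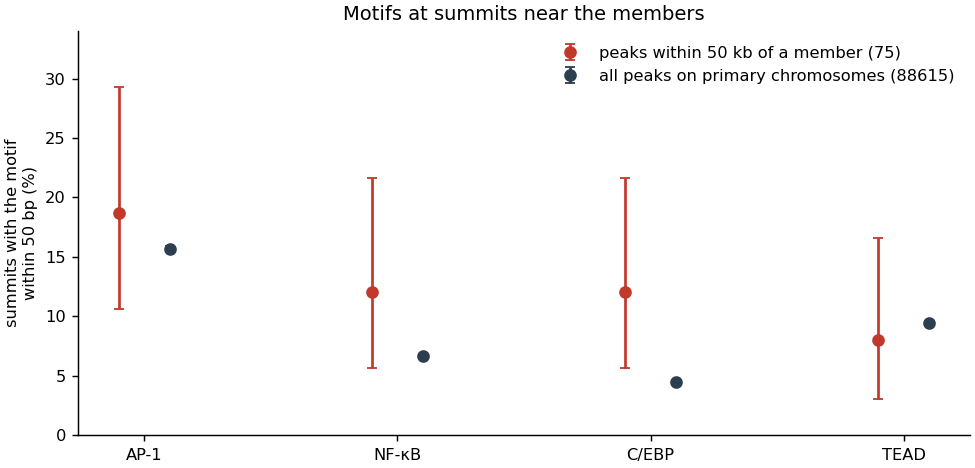
Percentage of summits with each motif within 50 bp for the 75 peaks (red) and all 88615 peaks on the primary chromosomes (dark), with exact 95% binomial intervals as bars. The red point is above the dark one for C/EBP (12.0% and 4.43%) and NF-κB (12.0% and 6.66%), and the points are close for AP-1 and TEAD.

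The κB matches of the promoters did not always lie under the summit. In all 6 genes with both a match and a promoter peak, the match lay inside the peak. Each of these peaks covered the whole stretch before the start in which matches were sought, so no match could lie outside. This count therefore does not bear on whether κB letters go with open chromatin. The distance from the summit to the centre of the match was 25 bp in CXCL5, 60 bp in CXCL8, 66 bp in CXCL1 and 568 bp in IL6. In CXCL3 the match at -53 was 27 bp from the summit, and in CXCL2 the match at -77 was 121 bp away. CXCL3 and CXCL5 were therefore the promoters with a κB match within 50 bp of the summit. The other κB summits outside promoters included those upstream of CCL2 and LIF already described, one 20.1 kb downstream of the LIF start of fold 21.1 (15.2 to 28.6) and one 24.7 kb downstream of the IL1B start of fold 11.9.

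The factors and receptors of the pathway were looked up in the same way. Of 13 genes of the NF-κB and C/EBP factors and their regulators, 10 had a promoter peak (76.9%), beside 61.4% of all coding genes. The exact interval of this share began at 46.2% and included the 61.4%. At the canonical start 7 of the 13 had one, beside 52.2% of all coding genes. REL, an NF-κB subunit, had a fold of 41.7 (33.2 to 51.8), NFKB2 one of 37.1 (29.1 to 46.7) and RELA, the p65 subunit, one of 20.6 (14.8 to 28.0). TNFAIP3, an inhibitor of the pathway, had a fold of 35.6 (27.7 to 44.9). RELB, CEBPB and CEBPD had none by this definition, though the nearest summit was 104 bp from the CEBPB start, just beyond the 100 bp limit, and 600 bp from that of RELB.

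Among the receptors, 7 of 11 had a promoter peak (63.6%, 30.8 to 89.1), beside 61.4% of all coding genes. At the canonical start 5 had one, beside 52.2% of all coding genes. IL1RAP, the accessory chain of the interleukin-1 receptor, had a fold of 54.1 (44.3 to 65.4), and IL6R one of 37.1 (29.1 to 46.7). IL6ST, which encodes gp130, had 25.8 (19.2 to 33.9) and LIFR 21.6 (15.7 to 29.2). CXCR1 and CXCR2, the receptors of the cluster's chemokines, had none, and the nearest summits were 19.5 kb and 51.8 kb from their starts. CCR2, the receptor of CCL2, had none, with the nearest summit at 7.47 kb.

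Of 16 other chemokine genes, 3 had a promoter peak (18.8%, 4.05 to 45.6), beside 61.4% of all coding genes. At the canonical start 1, CX3CL1, had one, beside 52.2% of all coding genes. The difference between the 3 of 16 and the 7 of 10 was not tested. CX3CL1 had a fold of 22.7 (16.6 to 30.4), CXCL12 one of 9.79 (6.01 to 15.2) and CXCL16 one of 5.67 (2.99 to 9.99). CXCL9, CXCL10 and CXCL11, the interferon-induced CXC chemokines on chromosome 4, had none, and their nearest summits were 16.5 to 32.5 kb away. Of 10 other inflammatory cytokines, 4 had a promoter peak (40.0%, 12.2 to 73.8), beside 61.4% of all coding genes. At the canonical start 3 had one, beside 52.2% of all coding genes. The 4 were CSF2 with a fold of 29.4 (22.3 to 38.0), IL18 with 16.5, CSF1 with 13.4 and IL11 with 11.9. TNF had no peak within 50 kb, and the nearest summit was 1034 kb from its start. Reads of mapping quality under 30 had been removed, and whether reads around TNF could be placed was not tested. The missing peaks therefore do not describe the state of the TNF locus.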

How the data were processed

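A single ATAC-seq library of 786-O cells with an empty vector was used, as the peak list that the authors deposited. Its reads had been trimmed by fastp and mapped to hg38 using Bowtie2 (2.3.4.3 in the submitters' processing notes), and the authors, by their methods, took out duplicates, mitochondrial reads and reads of mapping quality under 30 before calling peaks with MACS2 (2.2.6 in those notes) against 1 genome-wide background. Whether reads were shifted for the Tn5 cut is not given in the sources used here. The deposited ratio is the fold of the pileup at the summit against that background, the deposited −log10 values are the p-value and q-value of the caller, and the deposited score is a scaled −log10 q-value with a lowest value of 52. The labels give an empty vector and the names of the peaks a wild-type tag, and the label was followed.

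Pileups were recovered from the folds as whole numbers (largest departure 1.8e-05) and ranged from 9 to 300, which is the depth behind each peak; the total number of reads is unknown. All intervals lay within hg38. The 88615 peaks on the 24 primary chromosomes were used, and 61 others were left out. Genes and transcripts came from GENCODE release 44. Intervals are exact Poisson, conditional binomial (ratios of pileups) or Clopper-Pearson. Named genes were the 10 genes with all their peaks or the strongest and nearest ones, and from each list the 2 genes of highest promoter fold and, in list order, up to 2 without a peak. The other named genes of the lists were added after their values were seen. The marker counts leave out a gene that is not reported here. The genes and lists were chosen with earlier results of these data known. Motifs were searched on both strands (TATAAA on 1). Copies were searched with BLAST 2.17.0 at 85% identity or more. Assigning summits to windows and finding motifs were tested on simulated data, and 200 of 200 planted windows and 200 of 200 planted motifs were recovered. Python 3.11.15, numpy 2.4.6, pandas 2.3.3, scipy 1.17.1, pysam 0.24.0 and matplotlib 3.10.9 were used. Alternatives were a higher score minimum, other windows, other promoter definitions and wider motif windows.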

Additional observations from a re-analysis of the deposited data

How the results depend on the processing

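With a score above 200, 39 of the 75 peaks remained and their median fold was 22.7, beside 21.6 for all peaks at that minimum. The members with a promoter peak were then 5, as CXCL1 and CCL2 were lost at a score above 100 and at one above 200, beside 57.5% and 52% of all coding genes. A window of 20 kb held 43 peaks, and one of 100 kb held 107. With 100 bp searched to each side of the summit, AP-1 was found at 34.7% (25.7% of all peaks) and κB at 24.0% (12.8% of all peaks), where the interval for κB no longer included the share of all peaks. The number of genes with a promoter peak was 7 under each of the other promoter definitions tried (canonical transcript, 1 kb or 2.5 kb to both sides, overlap of the interval), while the share of all coding genes was 65.7% at 1 kb and 70.3% at 2.5 kb to both sides. Leaving out the LIF window, an alternative chosen after the data were seen, left 51 peaks with a median fold of 9.28. No paired analysis was possible because 1 library forms no pairs. Depth limits the weakest peaks most, since a fold of 5.15 rests on a pileup of 9, and the intervals leave out variation between cultures and libraries.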
